A study of Mus musculus with 9 samples.

Results

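The genes described here are 40 protein-coding genes of the endoplasmic reticulum (ER) that fold and export secreted and membrane proteins. They were chosen by symbol from the 21868 genes of the count table. All 40 were in the table and all 40 passed the filter on low counts, which kept 14668 genes. RNA was measured by bulk sequencing of the mouse (Mus musculus) jejunum, the middle part of the small intestine. Mice received TPN, starvation or sham treatment for 24 h, and each of the 3 groups has 3 libraries, all labelled as biological replicates. Total parenteral nutrition, the usual meaning of TPN, supplies nutrients through a vein. Every library came from a 5 cm piece of jejunum opened lengthwise, so it can hold every cell type of the gut wall. The sources used here do not state strain, age, sex or the sham procedure. Nor do the labels tie each library to its own mouse, so the p-values rest on a spread between libraries that may not be a spread between mice.

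Proteins bound for secretion or for membranes enter the ER through the Sec61 channel as they are made. Inside, their signal peptides are cut off, sugar chains are attached, disulfide bonds are formed, and chaperones of the Hsp70, Hsp90 and lectin families help them fold. Chains that fail to fold are drawn back to the cytosol and degraded (ER-associated degradation). When unfolded chains build up, the membrane sensors IRE1 (encoded by Ern1), ATF6 and PERK (encoded by Eif2ak3) start the unfolded protein response, in which XBP1 and ATF6 switch on many of the chaperone genes. In the jejunum this machinery serves enterocytes, which export chylomicrons and brush border enzymes, and goblet, Paneth and plasma cells, which secrete mucins, antimicrobial peptides and antibodies.

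ATF6 is known to act on chaperone genes through the ER stress response element (ERSE), a CCAAT box spaced from a CCACG box, and every member with a match upstream of its start site is printed here. RefSeq promoter windows on GRCm38.p6, from 250 bases before to 50 after each start site, were matched by symbol for 30 of the 40 genes. The genes with no matched window were Hyou1, Manf, Ero1l, Atf6, Sec61a1, Ssr2, Sec11c, Spcs3, Ostc and Derl1. The letters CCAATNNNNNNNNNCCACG or their reverse complement occurred in 8 of the 30 members, which is 26.7%, against 28 of the 16571 table genes with a window, which is 0.169%. The ERSE-II letters ATTGGNCCACG, on either strand, occurred in 2 members, Dnajb11 and Herpud1, and in 10 table genes (0.0603%). The 8 letters TGACGTGG, the core of the element read by XBP1, occurred on either strand in 0 members and in 0.869% of table genes. Each ERSE holds a CCAAT box, which by itself occurred in 24 of the 30 members and in 42.1% of table genes. The match of Dnajb11 lies after its start site and is not printed. The table genes counted here include the members. The element is known from chaperone genes and the list was chosen to hold such genes, so the higher share among members is no test. A match is a description of these letters in this window. The stretches run 5′ to 3′ on the strand of the gene, with the element in capitals.
Hspa5, chr2:34772000-34772068, plus strand: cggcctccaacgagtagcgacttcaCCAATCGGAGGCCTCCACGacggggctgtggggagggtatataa
Hsp90b1, chr10:86705613-86705681, minus strand: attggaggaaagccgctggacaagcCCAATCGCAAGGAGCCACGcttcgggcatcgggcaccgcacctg
Hsp90b1, chr10:86705508-86705576, minus strand: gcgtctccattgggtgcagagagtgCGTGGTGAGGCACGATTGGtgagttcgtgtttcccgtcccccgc
Dnajc3, chr14:118937802-118937870, plus strand: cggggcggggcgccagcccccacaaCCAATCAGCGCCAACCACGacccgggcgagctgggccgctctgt
Creld2, chr15:88819495-88819563, plus strand: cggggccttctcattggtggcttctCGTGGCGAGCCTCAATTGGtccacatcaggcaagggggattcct
Calr, chr8:84847050-84847118, minus strand: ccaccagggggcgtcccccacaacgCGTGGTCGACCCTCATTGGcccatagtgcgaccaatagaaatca
Canx, chr11:50325775-50325843, minus strand: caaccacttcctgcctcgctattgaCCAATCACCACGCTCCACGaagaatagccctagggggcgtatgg
Pdia6, chr12:17266466-17266534, plus strand: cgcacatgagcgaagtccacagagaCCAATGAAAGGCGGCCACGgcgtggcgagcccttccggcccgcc
Syvn1, chr19:6046507-6046575, plus strand: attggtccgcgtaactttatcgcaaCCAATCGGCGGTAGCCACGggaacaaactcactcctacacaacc
Herpud1 (ERSE-II), chr8:94386352-94386412, plus strand: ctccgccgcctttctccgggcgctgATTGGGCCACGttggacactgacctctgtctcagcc

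The 8 members with an ERSE include the Hsp70 chaperone BiP (Hspa5), the ER Hsp90 (Hsp90b1), both lectin chaperones (Calr and Canx) and the disulfide isomerase Pdia6. In starvation against sham, 7 of these 8 had a log2 fold change below 0, with a median of -0.55, and 1 of them, Calr, passed the edgeR test described below, in which 1.14% of all genes were lower. The 22 members with a window and no ERSE, which include Dnajb11 and Herpud1 with an ERSE-II, had a median of -0.24, with 2 lower. In TPN against sham the median log2 fold change was -0.02 with an ERSE and -0.22 without, and 0 and 3 were lower, where 5.12% of all genes were. In TPN against starvation the medians were 0.53 and -0.02. Among the 20 other table genes with an ERSE, 9 were expressed enough to be tested, and their median in starvation against sham was 0.05. These sets were formed after the fold changes were known and carry no test.

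**Figure D1:**
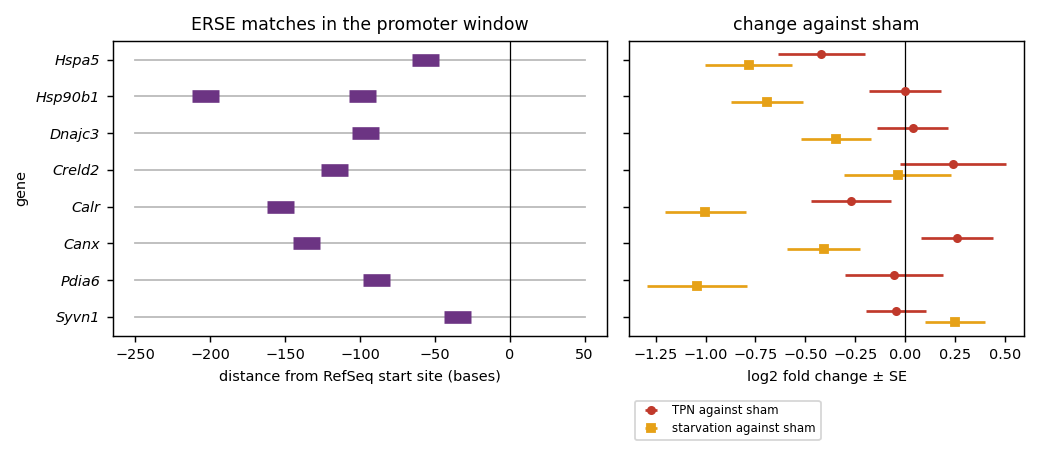
Left: position of each ERSE match (bars) in the promoter window of 8 members, in bases from the RefSeq start site. Right: log2 fold change ± SE of the same genes in TPN against sham (circles) and starvation against sham (squares). The starvation values of Calr (-1.002) and Pdia6 (-1.04) lie farthest below 0.

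Total counts ran from 7779877 to 12084278 per library, and the 40 genes together took 0.627% to 0.912% of them. Values below are counts per 1000000 reads of a library (CPM), scaled by TMM factors, in which 1 read was worth 0.0797 to 0.119 CPM. Enterocyte markers were present in every library, with a mean of 10.24 to 11.87 log2 CPM over 13 genes. Fabp6, a defining gene of the ileum, had 0.0833 CPM in sham replicate 3 and no read elsewhere. The ileum markers as a list were not absent, with sums of 139 to 152 CPM in TPN, 115 to 416 CPM in starvation and 85.5 to 119 CPM in sham. Colon markers summed to 88.1 to 168 CPM over the libraries. A pair of libraries stood apart by tissue layer. In sham replicate 2 the mean of the smooth muscle markers was 9.24 log2 CPM, against 4.85 to 6.43 in the other 8 libraries. Villus tip markers averaged 8.86 in starvation replicate 3 and 8.04 in sham replicate 2, against 6.20 to 7.15 in the remaining 7. Counts of called genes are therefore also given without both of these libraries.

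Acinar cells of the pancreas and plasma cells are packed with ER, so their transcripts were measured in each library. All 21 acinar markers had reads in TPN replicates 1 and 2, starvation replicate 1 and sham replicate 1, with summed levels of 633, 31782, 4399 and 6719 CPM. In the other 5 libraries 8 to 11 markers had reads, their sum was 59.4 to 92.9 CPM, and Cpa1, a pancreatic carboxypeptidase, was at 0. Every group thus holds libraries with and without acinar transcripts. The 18 plasma and B cell markers summed to 2105, 1901 and 1782 CPM in TPN, 1909, 1752 and 675 CPM in starvation, and 2214, 1199 and 1682 CPM in sham. Jchain, the joining chain of secreted IgA, made up most of each sum and was lowest in starvation replicate 3, at 595 CPM. The B cell gene Ms4a1 reached 61.2 and 43.1 CPM in starvation replicates 1 and 2 and 19.1 CPM in TPN replicate 3, and was under 6 CPM in the other 6 libraries. The mean log2 CPM of the 40 ER genes was 6.19, 6.32 and 6.18 in TPN, 6.18, 6.12 and 6.15 in starvation and 6.53, 6.30 and 6.51 in sham. With the acinar markers as a covariate of the fit, 3 members passed in TPN against sham, all lower, where 4.68% of all genes passed in either direction. In starvation against sham 4 members were then lower, where 2.19% of all genes passed, and in TPN against starvation 1 was higher, where 3.09% passed. For plasma and B cells the covariate was the mean log2 CPM of the markers, not their sum. That mean was 3.37 in TPN, 3.65 in starvation (SD 2.09) and 2.34 in sham, so starvation was highest by it. With this covariate many more genes of the whole table passed. In TPN against sham 10 members were then lower and 1 higher (15.2% of all genes in either direction), in starvation against sham 17 were lower and 1 higher (19.0%), and in TPN against starvation 8 were higher and 4 lower (22.2%). Without the 4 libraries that held all acinar markers, which leaves 1 TPN library, no member passed in any comparison and at most 2 genes of the whole table passed in either direction.

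**Figure D2:**
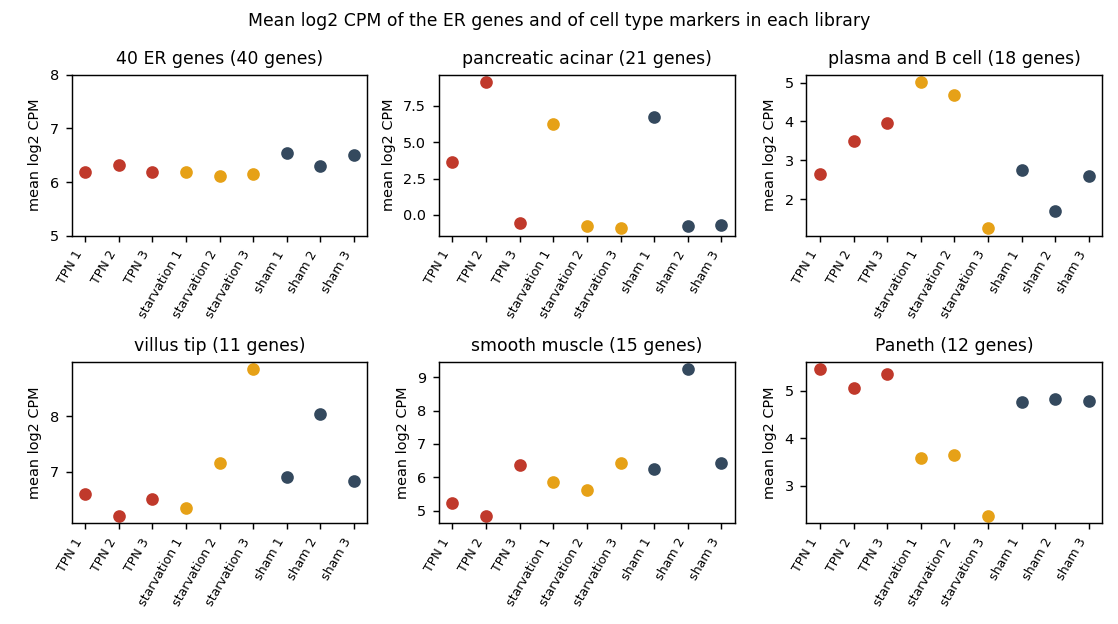
Mean log2 CPM per library of the 40 ER genes and of 5 lists of cell type markers, with TPN in red, starvation in yellow and sham in dark blue. The ER genes span 6.12 to 6.53, the acinar markers -0.94 to 9.16, and the Paneth cell markers are lowest in the 3 starved libraries.

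Per kilobase of exon, the level differed widely among the 40 genes. P4hb, protein disulfide isomerase and also the smaller subunit of the microsomal triglyceride transfer protein that loads chylomicrons, was highest, at a mean of 902 reads per kilobase and per 1000000 reads (RPKM) over the 9 libraries. Calr (147 RPKM), Hspa5 (145 RPKM) and Xbp1 (102 RPKM) followed, and Calr and Hspa5 changed places between groups. Sec61g, the smallest subunit of the Sec61 channel, was lowest at 0.953 RPKM, with 16 to 36 reads per library. Long exonic matches of at least 95% identity were found in 4 other annotated genes for Sec61g and in 3 for Sec61b, so reads of both may be shared or lost and their levels are uncertain.

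**Figure D3:**
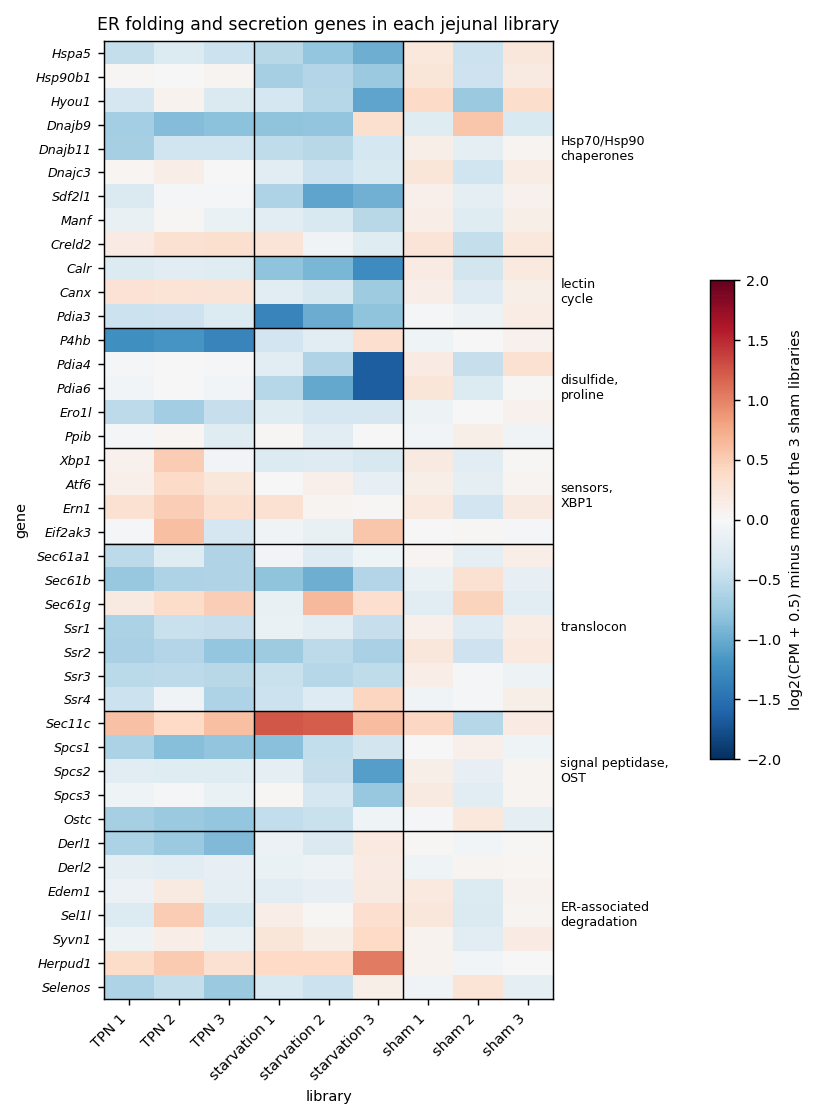
Each cell gives log2(CPM + 0.5) of a gene in a library minus the mean of the 3 sham libraries, with genes grouped by role. Values run from -1.65 to 1.25. The lowest are Pdia4 and Pdia6 in starvation replicate 3, the highest Sec11c in starvation replicate 1.

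In starvation against sham, 3 genes of folding in the ER lumen fell: calreticulin (Calr), its partner Pdia3 and the BiP cofactor Sdf2l1, with log2 fold changes between -1.03 and -0.88. For BiP, the ER Hsp90 and Pdia6 every starved library was below every sham library, but the threshold was missed. In bulk tissue, fewer cells of a type and less RNA per cell cannot be told apart. Of the 40 genes, 0 were higher and 3 were lower by the edgeR quasi-likelihood test with Benjamini-Hochberg adjustment over 14668 genes, where 2.55% of all genes were higher and 1.14% lower. At an unadjusted p under 0.05 the counts were 2 and 17. The median log2 fold change of the 40 was -0.32, against -0.01 over all genes, and 33 of 40 were below 0, against 50.8% of all genes. Groups did not overlap for 14 lower and 2 higher members, where 11.2% and 13.9% of all genes did so.

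Calr, the soluble lectin chaperone that holds glycoproteins until they are folded (GENCODE M21 gene on GRCm38, chr8:84841850-84846934), had 308, 283 and 225 CPM in starvation and 602, 415 and 617 CPM in sham. Every starved library was below every sham library, with a log2 fold change of -1.002 ± 0.20 (± SE; adjusted p = 0.0339). Pdia3, the thiol oxidoreductase that works beside calreticulin and calnexin (chr2:121413775-121438687), had 35.9, 45.1 and 51.3 CPM in starvation and 87.1, 83.6 and 99.9 CPM in sham (-1.03 ± 0.15, adjusted p = 0.0141). The gap of Pdia3 exceeded the spread within either group. Sdf2l1, which keeps BiP clients from aggregating (chr16:17130138-17132383), had 20.96, 15.4 and 16.4 CPM in starvation and 34.6, 28.5 and 34.4 CPM in sham (-0.88 ± 0.17, adjusted p = 0.0312). Its groups did not overlap either. Canx, the membrane-bound lectin chaperone, had 221, 207 and 158 CPM in starvation and 283, 216 and 280.4 CPM in sham, and these groups overlapped (-0.41 ± 0.18, adjusted p = 0.211).

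Hspa5, the Hsp70 of the ER lumen known as BiP, had 529, 455 and 395 CPM in starvation and 898, 572 and 903 CPM in sham. The sham libraries ranged widely, with replicate 2 far below the other two, and the log2 fold change of -0.78 ± 0.22 had an adjusted p of 0.0801 by edgeR. Hsp90b1, the ER Hsp90, had 117.5, 124 and 111 CPM in starvation and 219, 139 and 210.0 CPM in sham (-0.69 ± 0.18, adjusted p = 0.0682). Hyou1, a large Hsp70 that exchanges the nucleotide of BiP, had 105, 89.6 and 63.8 CPM in starvation and 175, 80.1 and 171 CPM in sham, where sham replicate 2 fell inside the starved range. All 9 members of the Hsp70 and Hsp90 system had log2 fold changes below 0, from -0.88 to -0.04, and 1 of them, Sdf2l1, passed. Among the thiol isomerases, Pdia6 had 30.05, 21.9 and 14.1 CPM in starvation and 53.5, 37.3 and 46.0 CPM in sham (-1.04 ± 0.25, adjusted p = 0.0520). Pdia4 was at -0.75, with 16.9 CPM in starvation replicate 3 as its lowest value. P4hb and Ppib, a prolyl isomerase, were near 0, with log2 fold changes of -0.06 and -0.07.

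Markers of Paneth cells, secretory cells of the crypt base that are rich in ER, were also lower in starvation than in sham. Their 12 markers summed to 1922, 1865 and 524 CPM in starvation and 3619, 3262 and 3363 CPM in sham, and 6 of the 11 tested were lower and 0 higher. None of the 12 was at 0 in a starved library. The most abundant, the lysozyme gene Lyz1, had 1593, 1513 and 391 CPM in starvation and 2849.7, 2356 and 2519.9 CPM in sham. The 13 crypt and cycling cell markers summed to 934, 754 and 250.4 CPM in starvation and 1369, 758 and 1296 CPM in sham, which overlapped. Enteroendocrine markers, of hormone-secreting cells, summed to 243, 252 and 244 CPM in starvation and 350.1, 352 and 377 CPM in sham, and 2 of 12 were lower. Fibroblast and matrix markers, of cells that secrete collagen, summed to 586, 560.5 and 385 CPM in starvation and 772, 1677 and 798 CPM in sham, and 2 of the 13 tested were lower. Neither pair of groups overlapped. Goblet cell markers did not move this way, with a mean of 5.61 log2 CPM in starvation and 5.47 in sham. Their sums overlapped, at 4150 to 6464 CPM in starvation and 4653 to 5361 CPM in sham. Within starvation, replicate 3 had the lowest Paneth sum and the lowest Calr but the highest Pdia3. The part of these cell types in the lower values of Calr, Pdia3 and Sdf2l1 was not tested.

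Not all members leaned the same way. Sec11c, a catalytic subunit of the signal peptidase, had 23.4, 22.8 and 14.9 CPM in starvation and 12.9, 6.29 and 10.7 CPM in sham (1.03 ± 0.28, adjusted p = 0.0771). The noncatalytic subunits of the same enzyme, Spcs1, Spcs2 and Spcs3, were at -0.56, -0.54 and -0.33 (adjusted p = 0.0721 to 0.336). Herpud1, a membrane protein of ER-associated degradation, had 163, 164 and 254 CPM in starvation and 129.99, 119 and 123 CPM in sham (0.64 ± 0.19, adjusted p = 0.0923). For Sec11c and Herpud1, and for no other member, every starved library was above every sham library, and neither passed. The other degradation genes stayed between -0.20 (Selenos) and 0.25 (Syvn1, the ubiquitin ligase of the pathway). Of the sensors, Atf6, Ern1 and Eif2ak3 were at -0.02, 0.11 and 0.15. Xbp1, the transcription factor that IRE1 activates by splicing, had 277, 279 and 266 CPM in starvation and 379.7, 288 and 339 CPM in sham (-0.29 ± 0.19, adjusted p = 0.378). The spliced and unspliced forms of Xbp1 are not separated in counts per gene.

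The count of 3 lower members rested on few libraries. Without starvation replicate 2 or without sham replicate 3 no member passed, and without sham replicate 1 or any single TPN library 1 did, in fits where 0.214% to 1.17% of all genes passed in either direction. Without starvation replicate 3 there were 9 lower and 1 higher, where 11.6% of all genes passed. Without sham replicate 2 there were 6 lower, where 1.76% passed. With sham replicate 2 and starvation replicate 3 both left out, 20 members were lower and 2, Herpud1 and Sec11c, were higher, where 19.9% of all genes passed in either direction. The 20 then included Hspa5, Hsp90b1, Hyou1, Canx, Pdia4 and Pdia6. DESeq2 with all 9 libraries found 10 lower and the same 2 higher, where 3.78% and 5.81% of all genes were. The median over the 40 stayed between -0.36 and -0.25 in every alternative.

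In TPN against sham, 7 members fell: P4hb, its oxidase Ero1l, a pair of translocon-associated subunits (Ssr2 and Ssr3), the signal peptidase subunit Spcs1, the oligosaccharyltransferase subunit Ostc, and Derl1 of ER-associated degradation. P4hb, the most abundant of the 40, had the largest fall of the 7. Of the 40 genes, 0 were higher and 7 were lower by the edgeR quasi-likelihood test, where 3.48% of all genes were higher and 5.12% lower. At an unadjusted p under 0.05 the counts were 0 and 14, and DESeq2 gave 0 higher and 12 lower, where 6.52% and 9.02% of all genes were. The median log2 fold change was -0.16, against -0.02 over all genes, and 29 of 40 were below 0, against 51.4% of all genes. Groups did not overlap for 17 lower and 3 higher members, where 21.4% and 21.3% of all genes did so.

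P4hb (chr11:120560298-120573253) had 1391, 1425 and 1302 CPM in TPN and 3063, 3239.7 and 3431 CPM in sham. The TPN libraries lay close together and far below every sham library, with a log2 fold change of -1.24 ± 0.22 (± SE; adjusted p = 0.0120). The mean of 13 enterocyte markers was 10.46, 10.24 and 10.28 log2 CPM in TPN and 10.90, 11.17 and 11.06 in sham, a smaller gap in the same direction, with 3 of 13 lower, and its part in the value of P4hb was not tested. Fibroblast and matrix markers showed a wider gap, with sums of 410.1, 475 and 487 CPM in TPN and 772, 1677 and 798 CPM in sham. Of the 13 tested, 6 were lower and 0 higher, and their part in the 7 called members was not tested. Paneth and goblet cell markers had higher means in TPN, at 5.28 and 5.81 log2 CPM, against 4.79 and 5.47 in sham. Their sums overlapped between the groups. Paneth sums were 3347 to 4482 CPM in TPN and 3262 to 3619 CPM in sham. Goblet sums were 5084 to 5837 CPM in TPN and 4653 to 5361 CPM in sham. Ero1l, the oxidase that recharges P4hb with disulfides (chr14:45283087-45318771), had 38.0, 33.6 and 39.7 CPM in TPN and 51.1, 55.1 and 57.9 CPM in sham (-0.56 ± 0.12, adjusted p = 0.0270). Its 3 TPN libraries were all lower. Other isomerases were near 0, with Pdia4 at -0.06, Pdia6 at -0.06 and Ppib at -0.07 (adjusted p = 0.776 to 0.928).

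The translocon-associated protein complex binds beside the Sec61 channel and helps chains enter it. Its subunit Ssr2 (chr3:88575876-88588419) had 53.4, 55.7 and 49.0 CPM in TPN and 98.0, 62.9 and 95.7 CPM in sham (-0.70 ± 0.17, adjusted p = 0.0402). Ssr3 (chr3:65379655-65392623) had 241, 244 and 240.3 CPM in TPN and 388, 342 and 329 CPM in sham (-0.55 ± 0.14, adjusted p = 0.0470). The gap to sham replicate 2 was small for Ssr2, and for Ssr3 the TPN libraries spanned only a few CPM. The channel subunits Sec61a1 and Sec61b were at -0.46 ± 0.16 and -0.70 ± 0.22, and Ssr1 and Ssr4 at -0.52 ± 0.16 and -0.38 ± 0.27 (adjusted p = 0.0725 to 0.397). Thus 6 of the 7 channel and associated genes had all TPN libraries below all sham libraries, and 2 of these 6 passed. Of all genes, 21.4% were lower without overlap. For Ssr4 the gap was very small, with 4.31 RPKM in the highest TPN library and 4.34 RPKM in the lowest sham library. In starvation the same Ssr2 and Ssr3 had 51.1, 57.9 and 53.5 CPM and 258, 238 and 247 CPM, at -0.66 and -0.51 against the same sham libraries (adjusted p = 0.0693 and 0.0801).

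Spcs1, a signal peptidase subunit (chr14:30999826-31001672), had 38.5, 32.9 and 34.4 CPM in TPN and 59.4, 64.0 and 56.4 CPM in sham (-0.76 ± 0.15, adjusted p = 0.0178). Its exons overlap those of Glt8d1 on the other strand, and without strand the reads of both cannot be told apart there. The same holds for the called Ssr2 (Gm10704, 239 bases) and Pdia3 (Catsper2, 18 bases), and for uncalled members such as Ppib and Hsp90b1. Ostc, a subunit of the complex that attaches sugar chains as proteins enter (chr3:130695912-130709444), had 58.6, 55.6 and 54.7 CPM in TPN and 91.6, 108 and 81.8 CPM in sham (-0.74 ± 0.16, adjusted p = 0.0224). Derl1, a channel-like protein through which failed chains leave the ER (chr15:57869502-57892448), had 118, 109.7 and 99.6 CPM in TPN and 187, 178 and 188 CPM in sham (-0.75 ± 0.16, adjusted p = 0.0227). For Spcs1, Ostc and Derl1 the groups were clearly separated. Derl1 shares an exonic stretch of 652 bases at 95.4% identity with the annotated gene Gm35638, so its reads too may be shared or lost. Selenos, which works with the derlins, was at -0.63 ± 0.19 without passing (adjusted p = 0.0701), and Derl2, Edem1 and Syvn1 lay between -0.20 and -0.04.

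No member of the Hsp70 and Hsp90 system or of the lectin cycle passed in TPN against sham. Hspa5 had 559, 638 and 575 CPM in TPN, overlapping the sham libraries (-0.42 ± 0.22, 95% interval -0.91 to 0.07). Hsp90b1 had 189, 186 and 192 CPM in TPN (95% interval -0.41 to 0.40), and Calr had 443, 457 and 454 CPM (95% interval -0.72 to 0.18). Falls of up to the lower bounds are not shut out at this depth and spread. Dnajb9, a cochaperone of BiP that is a known XBP1 target, had 73.5, 64.8 and 66.6 CPM in TPN and 99.7, 175 and 95.6 CPM in sham. There was no overlap but no call (-0.85 ± 0.33, adjusted p = 0.137). Its highest value was in sham replicate 2, the library rich in smooth muscle markers and also high in villus tip markers. All 4 sensor and XBP1 values were above 0, from 0.13 to 0.35, and none passed. Among TPN libraries, all 4 of these genes were highest in replicate 2, the library richest in acinar transcripts. So were other members, such as Hspa5 and Sel1l, while Dnajb9 and Ero1l were lowest in that library. Without that library Eif2ak3 was at -0.19, Xbp1 at 0.005, Atf6 at 0.16 and Ern1 at 0.29. Ern1 had 53.5, 61.2 and 54.2 CPM in TPN and 49.6, 33.3 and 49.3 CPM in sham, with no overlap (0.35 ± 0.18, adjusted p = 0.231). Canx and Herpud1 were the other members with all TPN libraries above all sham libraries, at 0.26 and 0.40.

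This count also rested on single libraries. With any single TPN library left out no member passed, and without sham replicate 1 or 3 there was 1, in fits where 1.45% to 3.75% of all genes passed in either direction. Without starvation replicate 2 there were 4, where 4.62% of all genes passed. Without starvation replicate 3 there were 12 lower and 1 higher, where 21.3% passed. Leaving out sham replicate 2 and starvation replicate 3 together gave 16 lower and 1 higher, where 29.8% of all genes passed in either direction. The higher gene was Herpud1 in both of these fits. With smooth muscle markers as a covariate 1 member, Ssr2, passed, where 3.45% of all genes did, and P4hb kept a log2 fold change of -1.19. With library totals in place of TMM factors, which moved the median of all genes by 0.189 (log2), the median of the members was 0.03 and 4 stayed lower, namely P4hb, Spcs1, Ostc and Derl1, with Herpud1 higher. With that scaling 651 genes were higher and 573 lower over the whole table, in place of 510 and 751.

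The cofactors and smaller subunits not yet described passed in no comparison. Dnajb11, a cochaperone that hands clients to BiP, had 44.6, 54.1 and 54.1 CPM in TPN, 50.1, 48.3 and 55.6 CPM in starvation and 77.5, 62.9 and 73.8 CPM in sham. Both treated groups were below sham, at -0.49 and -0.48 (adjusted p = 0.0608 in TPN and 0.0899 in starvation). Dnajc3, an inhibitor of PERK and cochaperone of BiP, had 144, 155 and 142 CPM in TPN, 119, 105 and 114 CPM in starvation and 166, 107 and 156 CPM in sham. Its TPN and sham libraries overlapped. Manf, a secreted ER protein that binds BiP, had 148, 167 and 149 CPM in TPN, 139.7, 133 and 111 CPM in starvation and 179, 139 and 178 CPM in sham. Here too TPN and sham overlapped, and starvation was at -0.37 (adjusted p = 0.199). Creld2, an ER protein with thiol isomerase motifs, had only 8.89, 9.88 and 10.0 CPM in TPN, 9.56, 7.49 and 6.59 CPM in starvation and 9.52, 5.54 and 9.24 CPM in sham, with overlap throughout. Spcs2, a signal peptidase subunit for which a pseudogene copy can share reads, had 82.9, 81.9 and 82.4 CPM in TPN, 85.0, 70.1 and 44.98 CPM in starvation and 105, 86.3 and 100.9 CPM in sham. Both treated groups lay below sham without passing. Spcs3, the glycosylated subunit of that enzyme, was at -0.09 ± 0.20 in TPN against sham. Sel1l, the adaptor that holds the ligase Syvn1 in the degradation complex, had 173, 296 and 162 CPM in TPN, 227, 210.4 and 263 CPM in starvation and 245, 170.0 and 217 CPM in sham. The widest spread of Sel1l lay within TPN, and no comparison separated the groups (0.15 ± 0.25 in starvation against sham, adjusted p = 0.754). Sec61g, with few reads, was at 0.39 ± 0.40 in TPN and 0.34 ± 0.41 in starvation against sham.

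**Figure D4:**
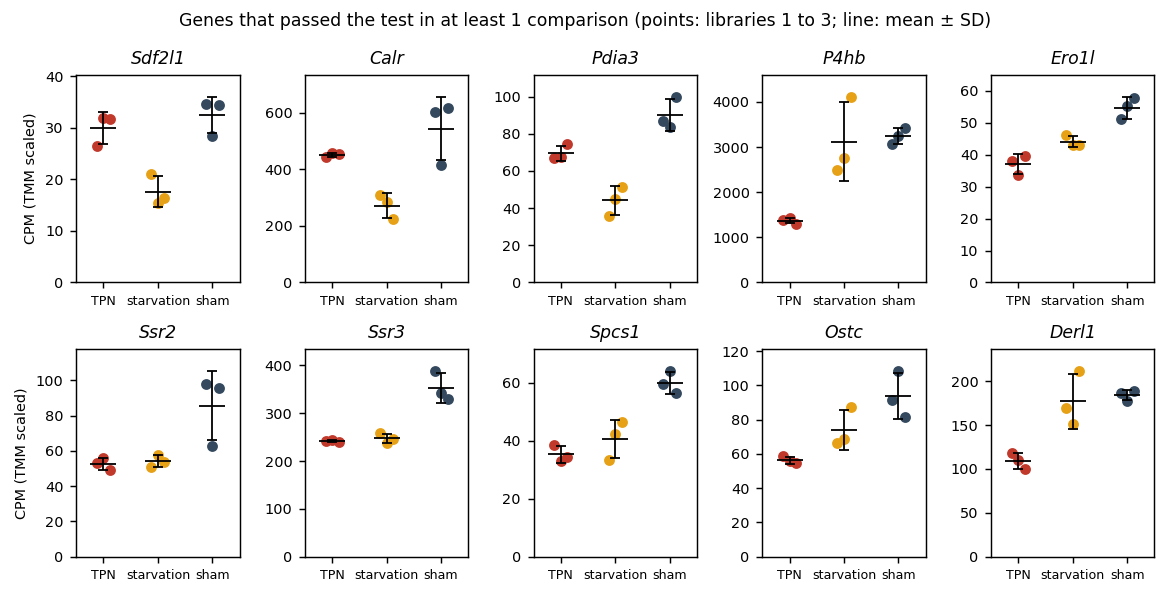
CPM of the 10 genes that passed the test in at least 1 comparison, as points for the 3 libraries of TPN, starvation and sham, with mean ± SD. The axes start at 0. P4hb and Derl1 are lowest in TPN, Sdf2l1, Calr and Pdia3 in starvation, and Ssr2 and Ssr3 lie at like levels in both.

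TPN and starvation were set against the same sham libraries above, and their own contrast tests the difference between them. Of the 40 genes, 2 were higher in TPN (Sdf2l1 and Pdia3) and 2 were lower (P4hb and Derl1), where 1.94% and 3.90% of all genes were. The median log2 fold change was 0.01, against -0.03 over all genes, and 20 of 40 were below 0, against 52.5% of all genes. By role, the median was 0.36 for the Hsp70 and Hsp90 system, 0.67 for the lectin cycle and -0.24 for ER-associated degradation. Groups did not overlap for 12 higher and 7 lower members, where 15.3% and 18.3% of all genes did so.

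Sdf2l1 had 26.4, 31.9 and 31.7 CPM in TPN and 20.96, 15.4 and 16.4 CPM in starvation (0.77 ± 0.17, adjusted p = 0.0348). Pdia3 had 66.8, 67.4 and 74.3 CPM in TPN and 35.9, 45.1 and 51.3 CPM in starvation (0.66 ± 0.15, adjusted p = 0.0386). For both, every TPN library was above every starved one. The lectin chaperones Calr and Canx were at 0.73 ± 0.20 and 0.67 ± 0.18, Hsp90b1 at 0.69 ± 0.18 and Pdia6 at 0.99 ± 0.25, all without overlap and just short of the threshold (adjusted p = 0.0501 to 0.0680). In the other direction, P4hb had 1391, 1425 and 1302 CPM in TPN and 2492, 2761 and 4113 CPM in starvation (-1.19 ± 0.22, adjusted p = 0.0167). Derl1 had 118, 109.7 and 99.6 CPM in TPN and 169, 151 and 212 CPM in starvation (-0.70 ± 0.16, adjusted p = 0.0360). Starvation replicate 3, the library richest in villus tip markers, had the highest value of both P4hb and Derl1, and the lowest of Calr, Canx, Hsp90b1 and Pdia6. The separation of P4hb and Derl1 held in the other 2 starved libraries too. The 12 Paneth cell markers summed to 4482, 3347 and 3657 CPM in TPN and 1922, 1865 and 524 CPM in starvation, and 8 of the 11 tested were higher and 0 lower. Of the 13 enterocyte markers, 4 were lower and 0 higher in TPN than in starvation. Enteroendocrine markers summed to 352, 314 and 342 CPM in TPN and 243, 252 and 244 CPM in starvation, with 2 of 12 higher. The part of these cell types in the 4 called genes was not tested.

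No member passed in this contrast with any single TPN library left out. Without starvation replicate 2 no member was higher and 2 were lower, and without sham replicate 1 or 3 no member was higher and 1, P4hb, was lower. In these fits 0.831% to 3.6% of all genes passed in either direction. Without starvation replicate 3 there were 4 higher and 2 lower, where 7.19% of all genes passed, and without sham replicate 2 there were 6 and 2, where 8.35% did. Without sham replicate 2 and starvation replicate 3 together, 8 were higher, among them Calr, Canx, Hsp90b1, Pdia4 and Pdia6, and 3 were lower, where 21.6% of all genes passed in either direction. DESeq2 found 6 higher and 2 lower, where 4.43% and 7.02% of all genes were.

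**Figure D5:**
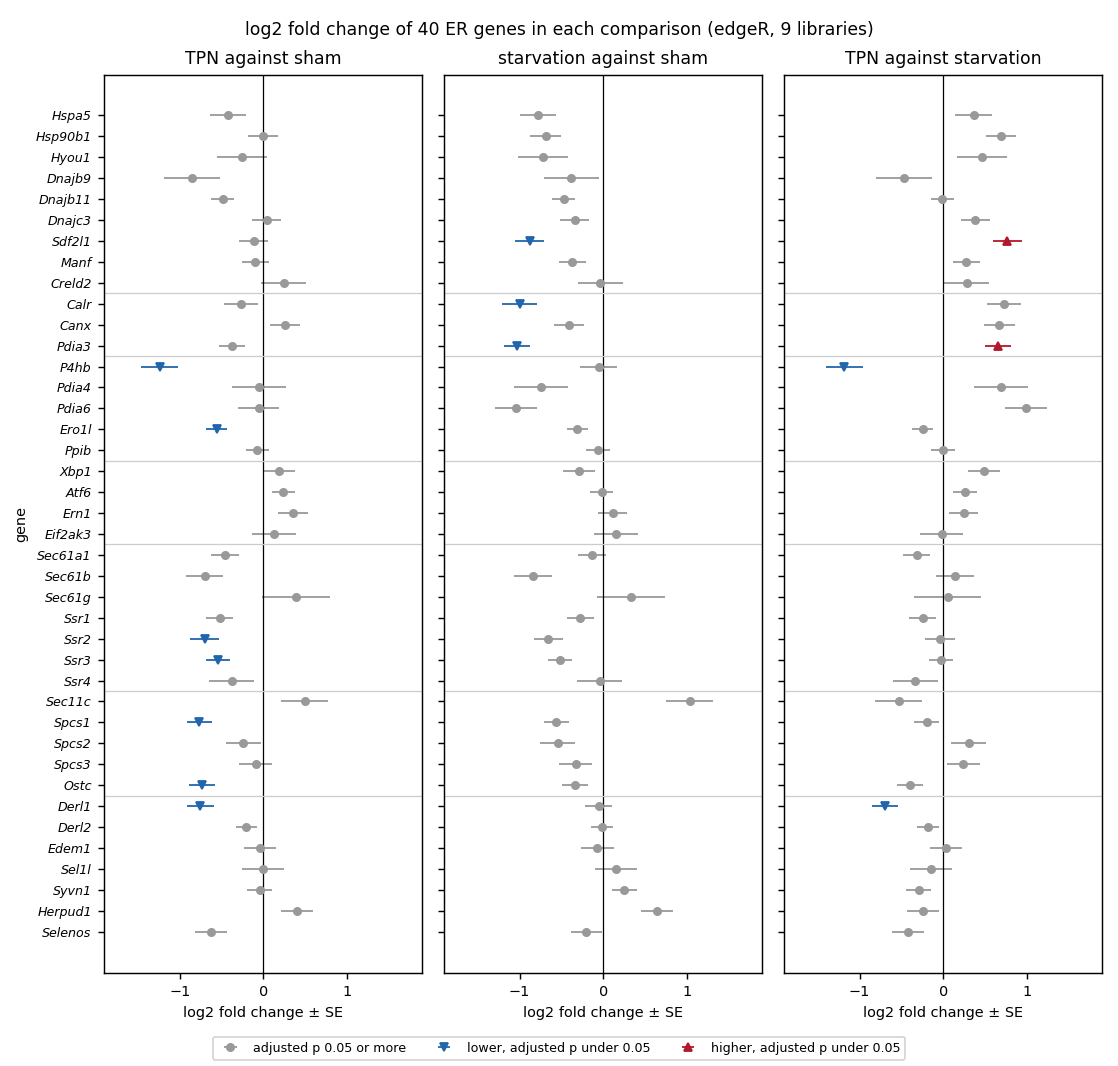
log2 fold change ± SE of each of the 40 genes in TPN against sham, starvation against sham and TPN against starvation, by role. Filled triangles mark an adjusted p under 0.05: 7 lower in TPN against sham, 3 lower in starvation against sham, and 2 higher and 2 lower in TPN against starvation.

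Other genes of the pathway were taken as lists by step. Over all genes, 3.48% were higher and 5.12% lower in TPN against sham, and 2.55% and 1.14% in starvation against sham. In TPN against starvation these shares were 1.94% and 3.90%. A count of 0 or 1 in a list cannot be told from such shares. The list of ER to Golgi transport had 0 higher and 10 lower of 35 in TPN against sham, with a median log2 fold change of -0.52. It had 1 higher and 1 lower of 35 in starvation against sham and 0 higher and 2 lower of 35 in TPN against starvation. Lman1, a cargo receptor that carries glycoproteins out of the ER, had 90.0, 98.7 and 87.5 CPM in TPN, 142, 153 and 159.6 CPM in starvation and 163, 168 and 191 CPM in sham. TPN stood below both other groups, with log2 fold changes of -0.92 ± 0.13 against sham (adjusted p = 0.00538) and -0.72 ± 0.13 against starvation (adjusted p = 0.0166). Copb2, a coat subunit of vesicles that return from the Golgi, was at -1.09 ± 0.25 in TPN against sham (adjusted p = 0.0310). In starvation against sham, Tmed9, a cargo adaptor of early transport vesicles, was at -0.84 ± 0.17 and Ergic2 at 0.94 ± 0.21 (adjusted p = 0.0341 and 0.0461). Sec16a, which organises ER exit sites, was lower in TPN than in starvation (-0.68 ± 0.16, adjusted p = 0.0417).

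Other subunits of the oligosaccharyltransferase had 0 higher and 0 lower of 11 in TPN against sham and 0 higher and 2 lower of 11 in starvation against sham, with medians of -0.26 and -0.52. The 2 genes were Ddost and the catalytic Stt3a. Over all genes, 1.14% were lower in starvation against sham and 5.12% in TPN against sham. Ddost had 77.6, 73.4 and 60.5 CPM in starvation and 120.0, 97.9 and 130.4 CPM in sham (-0.72 ± 0.16, adjusted p = 0.0401), and Stt3a was at -0.57 ± 0.13 (adjusted p = 0.0464). Other chaperones and glycoprotein folding genes had 0 higher and 0 lower of 17 in TPN against sham and 0 higher and 0 lower of 17 in starvation against sham (unadjusted p under 0.05 for 2 and 4). Other isomerases and oxidases had 0 higher and 0 lower of 15 and 0 higher and 0 lower of 15 (unadjusted for 3 and 0). Qsox1, a sulfhydryl oxidase, was higher in TPN than in starvation (0.84 ± 0.21, adjusted p = 0.0446). Signal recognition and other translocation genes had 0 higher and 1 lower of 16 in TPN against sham, namely Srp68 (-0.50 ± 0.12, adjusted p = 0.0392), and 0 higher and 0 lower of 16 in starvation against sham.

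Other genes of ER-associated degradation had 0 higher and 3 lower of 19 in TPN against sham and 0 higher and 0 lower of 19 in starvation against sham. Over all genes, 5.12% were lower in TPN against sham and 1.14% in starvation against sham. The ligase Rnf5 was at -0.74 ± 0.16 and the VCP cofactor Nploc4 at -0.51 ± 0.12 in TPN against sham (adjusted p = 0.0224 and 0.0378), and Rnf5 was lower in TPN than in starvation too (-0.62 ± 0.16, adjusted p = 0.0484). In the PERK and ATF4 branch, which slows translation and switches on amino acid and stress genes, 0 higher and 1 lower of 13 members in TPN against sham and 0 higher and 0 lower of 13 in starvation against sham passed. The gene that passed was Trib3, a pseudokinase induced by ATF4, with 9.96, 9.53 and 10.3 CPM in TPN, 25.6, 26.1 and 68.2 CPM in starvation and 22.7, 39.9 and 24.8 CPM in sham. Trib3 in TPN was below both other groups, with log2 fold changes of -1.55 ± 0.39 against sham (adjusted p = 0.0420) and -2.002 ± 0.40 against starvation (adjusted p = 0.0206). Atf4 and Ddit3, chosen after their values were seen as the transcription factors of that branch, were at -0.38 ± 0.16 and -0.18 ± 0.27 in TPN against sham and at -0.12 ± 0.16 and 0.35 ± 0.27 in starvation against sham (adjusted p = 0.176 to 0.712). Among other sensors and factors, 0 higher and 1 lower of 18 passed in TPN against sham and 0 higher and 0 lower of 18 in starvation against sham. Wfs1, an ER membrane protein of calcium balance, had 22.7, 21.2 and 21.4 CPM in TPN, 68.6, 61.9 and 61.6 CPM in starvation and 76.4, 50.2 and 71.7 CPM in sham. Every TPN library of Wfs1 was below every other library, at -1.60 ± 0.17 in TPN against sham (adjusted p = 0.00164) and -1.56 ± 0.17 against starvation (adjusted p = 0.00200). In TPN against starvation, 1 higher and 0 lower of 15 passed among the other isomerases and oxidases, 0 higher and 1 lower of 19 in ER-associated degradation, 0 higher and 1 lower of 13 in the PERK and ATF4 branch and 0 higher and 1 lower of 18 among the sensors and factors, and 0 of 11 other oligosaccharyltransferase subunits did.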

How the data were processed

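RNA of the mouse jejunum was sequenced by the authors in 9 libraries, 3 per group. The deposited table holds raw counts of reads per gene. Per the submitters' processing notes the tools were STAR 2.7.2e, featureCounts 2.0.0, cutadapt 2.9, FastQC 0.11.8 and DESeq2 1.32.0. GRCm38 and mm10 are the builds they name. The strand setting is not given in the sources used here. A further 9 count columns match no sample and were not used. Columns were matched to libraries by group and number.

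Counts were filtered with filterByExpr, which removed 7200 of 21868 genes, scaled by TMM factors and fitted for all 9 libraries with the edgeR 4.0.16 quasi-likelihood test (R 4.3.3). P-values were adjusted by Benjamini-Hochberg over 14668 genes at 0.05, and SE is the log2 fold change divided by the root of F. Scripts were tested on simulated data. CPM of single libraries use total counts and TMM factors, and RPKM use merged exon lengths of GENCODE M21 (GRCm38), from which gene coordinates also come. Marker summaries are means of log2 CPM with a prior count of 2. DESeq2 1.42.0, limma 3.58.1, other scalings, filters, covariates and left-out libraries were tried as alternatives. Total counts of 7779877 to 12084278 limit precision for genes with few reads.

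The members and all lists were chosen with earlier results of these data known. All 40 members are described. Of each pathway list, up to 2 genes per direction with the smallest adjusted p under 0.05 are named, and of marker lists the highest and lowest. Ms4a1, Cpa1, Atf4 and Ddit3 were chosen after their values were seen.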

Additional observations from a re-analysis of the deposited data

How the results depend on the processing

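All 14 called values of members kept their sign in every alternative run. The median of the members in TPN against sham changed sign with library totals, and that in TPN against starvation, near 0, changed sign in some alternatives. The counts of called members moved, as did the share of all genes called. For TPN against sham (0 higher and 7 lower), the count lower was 12 with DESeq2, 4 with upper quartile factors, 4 with library totals, 13 with only the groups compared, 3 with the acinar covariate, 1 with the smooth muscle covariate, 16 without sham replicate 2 and starvation replicate 3 together, 0 without the 4 libraries with acinar transcripts and 0 at an adjusted p under 0.01. The count higher was 1 with library totals, only the groups compared, the plasma and B cell covariate, or without those 2 libraries. The median of -0.16 became 0.028 with library totals, -0.27 with the plasma and B cell covariate and -0.34 with the smooth muscle covariate. A villus tip marker covariate, chosen after seeing the data, gave 1 higher, 15 lower and a median of -0.31, where 15.9% of all genes passed in either direction. For the same comparison 3.45% of all genes passed with the smooth muscle covariate and 19.4% with only the groups compared. The share with upper quartile factors is not given here, so that count is no result about the members.

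For starvation against sham (0 and 3), the count lower was 10 with DESeq2, 1 with library totals, 0 with only the groups compared, 17 with the plasma and B cell covariate, 7 with the smooth muscle covariate, 18 with the villus tip covariate, 20 without the 2 libraries, 0 without the acinar libraries and 0 at 0.01. The count higher was 2 with DESeq2, the villus tip covariate or without the 2 libraries, and 1 with library totals or the plasma and B cell covariate. Over all genes, 16.8% passed with the villus tip covariate, 1.36% with the smooth muscle covariate and 0.0141% with only the groups compared. For TPN against starvation (2 and 2), the count higher was 6 with DESeq2, 1 with library totals, 1 with only the groups compared, 1 with the acinar covariate, 8 with the plasma and B cell covariate, 6 with the smooth muscle covariate, 5 with the villus tip covariate, 8 without the 2 libraries, 0 without the acinar libraries and 0 at 0.01. The count lower was 1 with library totals, 4 with the plasma and B cell or villus tip covariate, and 0 with only the groups compared, the acinar covariate, without the acinar libraries or at 0.01, and the median of 0.01 became 0.19 with library totals. Over all genes, 9.58%, 8.41% and 3.78% passed under the villus tip covariate, the smooth muscle covariate and only the groups compared. The cause was not tested.

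Leaving out 1 library at a time gave 0 to 1 higher, 0 to 12 lower and a median of -0.23 to -0.09 in TPN against sham. It gave 0 to 1 higher, 0 to 9 lower and a median of -0.35 to -0.25 in starvation against sham, and 0 to 6 higher, 0 to 2 lower and a median of -0.048 to 0.12 in TPN against starvation. Library totals moved the median of all genes by 0.189 in TPN against sham and 0.143 in TPN against starvation.

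Deviations of same-numbered libraries correlated with r from -0.30 to 0.38 over genes, and those of differently numbered ones from -0.58 to 0.48. Deviations within a group of 3 sum to 0, so these values cannot settle whether equal numbers share a day or batch. Every library numbered 1 held all acinar markers, as did 1 other library. A fit with the replicate block gave 1 lower in TPN against sham, 1 lower in starvation against sham, and 0 higher and 0 lower in TPN against starvation. The share of all genes that passed in that fit is not given here, so these counts are no result about the members. Depth limits Sec61g most, at 16 to 36 reads per library, and 3 libraries per group limit every comparison.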
